A study of Rattus norvegicus with 4 samples.

Results

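Matricellular proteins were examined in the glomerular transcriptome of Adriamycin-treated rats through 9 genes chosen by symbol: Sparc, Sparcl1, Ccn1, Ccn2, Ccn3, Thbs1, Thbs2, Tnc and Postn. Values were available for 7 of them, out of 13261 genes used in the deposited table. The expression of Tnc and Postn was not analysed here. The genes were chosen with their levels known, Sparc because it was among the 10 highest genes, so levels are given as descriptions and carry no test. All 4 samples belong to the single group ADR: glomeruli isolated by sieving from kidneys of male Wistar rats that had received Adriamycin (doxorubicin, an anthracycline that injures podocytes) intravenously. The dose and the age of the rats are not given in the sources used here, and the labels name days 11 and 21 for harvest without tying either to these samples. There is no untreated group among the samples, so nothing below shows a response to Adriamycin. The labels do not state that each sample came from a separate rat, and the p-values measure only the spread between these 4 samples, which may be technical in part.

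Matricellular proteins are secreted into the extracellular matrix but serve less as structure than as signals: they bind collagens, growth factors and cell-surface receptors and alter adhesion, migration and matrix assembly. SPARC (osteonectin) binds collagen and calcium, and Sparcl1 (hevin) is its closest relative. The CCN proteins, named after Cyr61 (Ccn1), Ctgf (Ccn2) and Nov (Ccn3), bind integrins and heparan sulfate, and Ccn1 and Ccn2 are widely used target genes of the co-activators YAP and TAZ, which reach DNA through TEAD transcription factors. Thrombospondins 1 and 2 bind CD47 and CD36 and are inhibitors of angiogenesis, and thrombospondin 1 also activates latent TGF-beta. In the kidney, Ccn2 is known from podocytes and the mesangium and as a gene of scarring glomeruli.

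Because Ccn2 and Thbs1 ranked the 4 samples alike, and Sparc nearly so, while Ccn1 did not, the 250 bases before the start of these 4 genes are shown. They come from RefSeq (build GRCr8, while the submitters' processing notes name Rnor_6.0 for the deposited values), are written 5′ to 3′ on the strand of the gene, and carry in capitals the letters GGAATG or their reverse complement CATTCC, the core recognised by TEAD factors. The regions are chr1:22624615-22624864 on the minus strand for Ccn2, chr3:125510000-125510249 on the plus strand for Thbs1, chr10:40038817-40039066 on the minus strand for Sparc and chr2:237225690-237225939 on the minus strand for Ccn1. All lie upstream of the annotated gene start.
Ccn2: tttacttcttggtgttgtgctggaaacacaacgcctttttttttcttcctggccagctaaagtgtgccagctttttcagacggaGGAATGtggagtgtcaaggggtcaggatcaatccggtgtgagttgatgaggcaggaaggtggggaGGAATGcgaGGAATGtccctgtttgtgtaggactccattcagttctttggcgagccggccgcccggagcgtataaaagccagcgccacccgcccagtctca
Thbs1: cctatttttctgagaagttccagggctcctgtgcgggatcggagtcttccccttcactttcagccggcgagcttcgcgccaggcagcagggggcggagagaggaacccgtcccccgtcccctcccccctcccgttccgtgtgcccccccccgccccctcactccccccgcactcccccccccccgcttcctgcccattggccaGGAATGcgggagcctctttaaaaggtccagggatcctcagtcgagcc
Sparc: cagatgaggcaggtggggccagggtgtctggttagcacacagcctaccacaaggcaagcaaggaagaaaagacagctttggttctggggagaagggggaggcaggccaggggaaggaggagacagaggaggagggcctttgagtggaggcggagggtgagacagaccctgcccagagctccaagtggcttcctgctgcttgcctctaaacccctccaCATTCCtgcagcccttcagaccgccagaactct
Ccn1: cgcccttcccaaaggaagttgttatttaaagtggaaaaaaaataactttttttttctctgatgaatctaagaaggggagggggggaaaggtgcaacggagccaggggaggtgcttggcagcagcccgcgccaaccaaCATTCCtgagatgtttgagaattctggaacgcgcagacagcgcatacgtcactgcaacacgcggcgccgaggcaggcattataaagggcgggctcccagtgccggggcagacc

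The TEAD letters occurred 3 times before Ccn2, once each before Thbs1, Sparc and Ccn1, and not in the windows of Sparcl1, Tnc and Postn. Promoters were matched for 7 of the 9 genes, and 4 of these held the letters, against 11.8% of 27457 promoters of the same length. At least 3 copies were found in 25 of those promoters, or 0.0911%. In Ccn2 the matches began 166, 101 and 92 bases before the start. They began 113 bases before the start in Ccn1, 47 in Thbs1 and 33 in Sparc. The TATA box letters TATAAA or their reverse complement were found near the start of Ccn1, Ccn2 and Postn, beginning 34, 31 and 44 bases before it, and farther away in Tnc, at 208 bases; 13.1% of promoters held them. The SP1 letters GGGCGG or CCGCCC stood in the windows of Ccn1, Ccn2, Thbs1 and Tnc, against 32.4% of promoters; in Ccn1 they directly followed the TATA letters, and no TEAD match overlapped another motif. The AP-1 letters TGANTCA (6.36% of promoters), the SMAD palindrome GTCTAGAC (0.186%) and the CArG box bound by SRF (1.5%) matched in none of the 7 windows. A match describes letters in this window and is not evidence that a factor bound there.

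**Figure D1:**
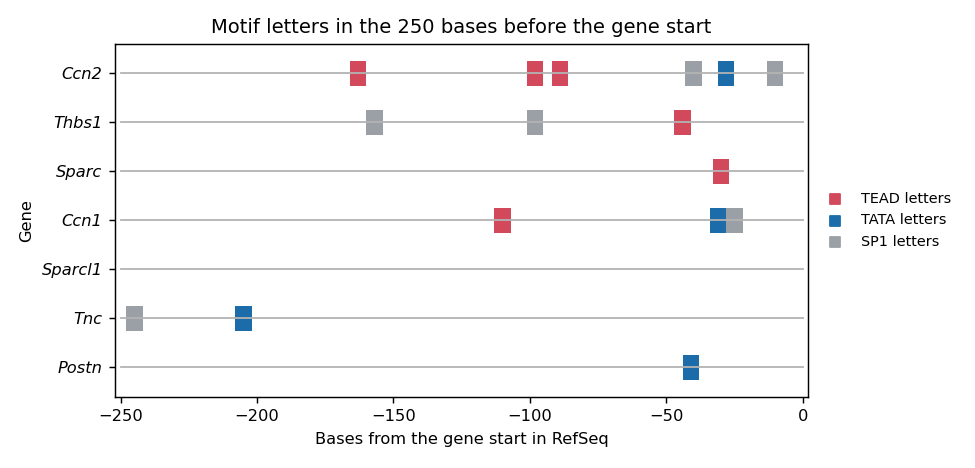
Position of TEAD (red), TATA (blue) and SP1 (grey) letters on either strand in the 250 bases before the RefSeq gene start of the 7 members with a promoter entry; the horizontal axis gives bases from the start. Ccn2 carries 3 TEAD matches, Thbs1, Sparc and Ccn1 carry 1 each, and Sparcl1, Tnc and Postn carry none.

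Depth and agreement of the libraries were as follows. The 4 samples, called replicates 1 to 4 in accession order, had 13566962 to 16207027 reads in the genes used, and the deposited values are log2 CPM (reads scaled to a common total, with 0.5 reads added). CPM values below were computed from the whole reads recovered from them. CPM is not corrected for transcript length, and no transcript lengths were used here, so levels are compared between samples and not between genes; a gene's place by CPM, where given, describes the rule by which it was chosen or named. The 13 protein-coding mitochondrial genes took 7.46% of reads in replicate 1, 12.5% in replicate 2, 9.34% in replicate 3 and 7.56% in replicate 4. No pair of samples agreed within sampling noise (mean chi-square per gene, with 1 degree of freedom, of 17.4 for the closest pair, replicates 1 and 4, and 58.7 for replicates 1 and 2). The label of glomerular tissue was checked on marker genes: all 12 podocyte, 8 of 9 glomerular endothelial and all 6 mesangial markers were listed, with at least 165, 2316 and 877 reads in each sample. All 8 proximal tubule markers were listed too, with at least 852 reads in each sample.

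Sparc (ENSRNOG00000012840) stood at position 7 of all genes by CPM, the measure by which it was chosen. It reached 7290 CPM in replicate 1, 5782 in replicate 2, 6312 in replicate 3 and 6799 in replicate 4, or 0.655% of all reads on average. Replicate 1 was highest and replicate 2 lowest, and the highest was 1.26-fold above the lowest. The mean was 6546 ± 647 CPM (SD, n = 4). At the threshold of the 10 highest genes, Mt-nd5 stood just inside at 4185 CPM and Cst3 just outside at 3935 CPM. The SD of the log2 values of Sparc was 0.14, below the median of 0.18 over all genes. This was the smallest SD of the 7 genes.

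Sparcl1 (ENSRNOG00000015093) differed more. Its levels were 56.2, 100.02, 71.5 and 43.8 CPM in replicates 1 to 4, with a mean of 67.9 ± 24.2 CPM (SD, n = 4). Replicate 2, lowest for Sparc, was highest for Sparcl1, at 2.28-fold the level of replicate 4. The ratio of Sparc to Sparcl1 reads within a sample, which does not depend on the total, was 130 in replicate 1 (95% exact binomial interval 121 to 140), 57.8 in replicate 2 (55.0 to 60.8), 88.3 in replicate 3 (83.2 to 93.8) and 155 in replicate 4 (144 to 168). The 4 intervals, which cover counting error only, did not overlap.

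Of the CCN genes, Ccn2 (connective tissue growth factor, ENSRNOG00000015036) was at 1644 CPM in replicate 1, 1068 in replicate 2, 1309 in replicate 3 and 1817 in replicate 4. Replicates 4 and 1 were above the other two, and the range was 1.70-fold. The mean was 1460 ± 336 CPM (SD, n = 4), and the SD on the log2 scale was 0.34. Ccn1 (Cyr61, ENSRNOG00000014350), an immediate-early gene, grouped the samples differently. It was at 150.4 and 152 CPM in replicates 1 and 2 and at 232 and 213 CPM in replicates 3 and 4, a mean of 187 ± 41.8 CPM (SD, n = 4). For replicates 1 and 2 the 95% Poisson intervals of counting error overlapped, at 144 to 157 and 146 to 158 CPM, and both lay below those of replicates 3 and 4, at 224 to 240 and 206 to 221 CPM. The ratio of Ccn2 to Ccn1 reads was 10.9 in replicate 1, 7.01 in replicate 2, 5.65 in replicate 3 and 8.53 in replicate 4, so that the 2 genes did not keep a fixed proportion.

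Ccn3 (Nov, ENSRNOG00000008697) had the fewest reads of the members, 50, 77, 90 and 138 reads in replicates 1 to 4. These correspond to 3.69, 4.75, 5.86 and 9.05 CPM, a mean of 5.84 ± 2.32 CPM (SD, n = 4). Replicate 4 was 2.46-fold above replicate 1, and its 95% Poisson interval of 7.61 to 10.7 CPM lay above that of the other samples, the highest of which ended at 7.21 CPM. The intervals of replicates 1, 2 and 3 overlapped. The SD of Ccn3, 0.55 on the log2 scale, fell to 0.33 without replicate 4.

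Thbs1 (ENSRNOG00000045829) had the widest spread of the 7 genes on the log2 scale, with an SD of 0.57. It was at 372 CPM in replicate 1, 168 in replicate 2, 242 in replicate 3 and 391 in replicate 4, and the mean was 293 ± 107 CPM (SD, n = 4). Replicates 1 and 4 were again high and replicate 2 low, over a range of 2.33-fold. Without replicate 2 the SD was 0.38. Thbs2 (ENSRNOG00000010529) ran the other way within a narrow range of 1.29-fold: 67.2 and 69.6 CPM in replicates 1 and 4, 86.8 and 85.6 CPM in replicates 2 and 3, a mean of 77.3 ± 10.3 CPM (SD, n = 4). The ratio of Thbs1 to Thbs2 reads was 5.54 (95% exact binomial interval 5.16 to 5.95) and 5.61 (5.26 to 5.997) in replicates 1 and 4, and 1.93 (1.81 to 2.06) and 2.83 (2.65 to 3.01) in replicates 2 and 3. The proportion of the 2 thrombospondin transcripts therefore differed between these pairs of samples, and between replicates 2 and 3, by more than counting error, whereas the intervals of replicates 1 and 4 overlapped. Thrombospondin 1 is also a platelet protein; 3 of 5 platelet markers were listed, with as few as 18 reads in a sample and a summed level of 16.9, 24.1, 21.6 and 19.9 CPM in replicates 1 to 4. Of these, 1 of 3 exceeded counting error, against 69.5% of all genes, which with so few reads says little about platelets. The part of platelets in the differences of Thbs1 was not tested.

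**Figure D2:**
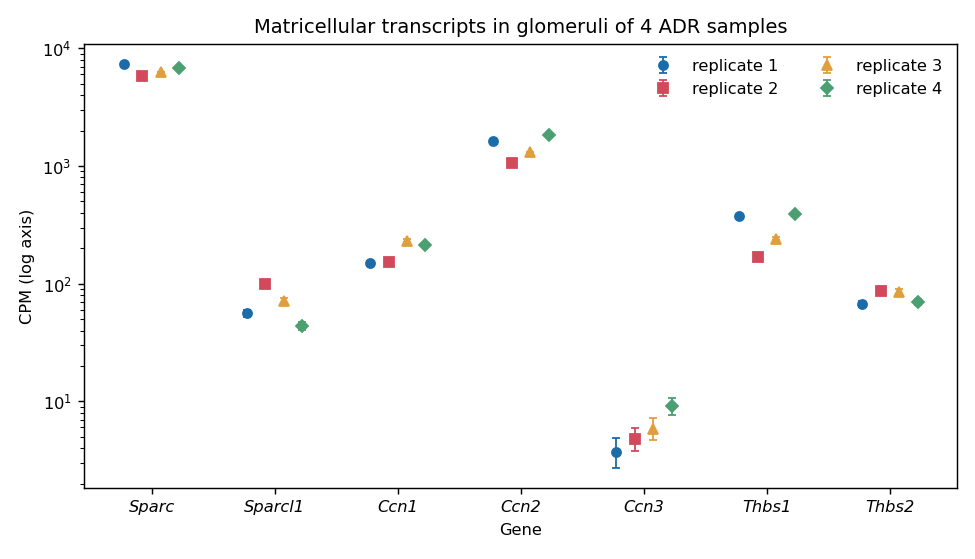
CPM (log axis) of the 7 members in each of the 4 samples, with 95% Poisson intervals of counting error as bars, most of them smaller than the symbols. Sparc lies between 5782 and 7290 CPM and Ccn3 between 3.69 and 9.05 CPM; replicate 2 is lowest for Sparc, Ccn2 and Thbs1 and highest for Sparcl1 and Thbs2.

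Differences between the samples were larger than counting error for all 7 genes (chi-square index of dispersion on recovered reads, Benjamini-Hochberg adjusted over all genes; the largest adjusted p among them was 2.6e-08, for Ccn3). This test also called 9222 of 13261 genes, or 69.5%, so it does not set these genes apart. It called all 7 when any single sample was left out.

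The spread of each gene was next set against genes of similar level with limma's abundance trend. After adjustment, limma called 0 of 13261 genes (0%), and therefore 0 of the 7. Without adjustment, 725 genes, or 5.47%, passed the threshold of 0.05 in limma, among them Thbs1 and Sparcl1, each with an adjusted p of 0.912. A Pearson statistic on recovered reads at a fixed dispersion trend called 999 genes, or 7.53%, and 2 of the 7, Sparcl1 (adjusted p = 1.39e-05) and Thbs1 (adjusted p = 0.000829). Unadjusted, this statistic passed 15.9% of genes and 4 of the 7, adding Ccn3 and Ccn1, whose adjusted p-values were 0.152 and 0.168. Ccn2 (adjusted p = 0.328), Thbs2 (adjusted p = 0.83) and Sparc (adjusted p = 1.00) did not pass. Neither call held in every fit that left out a sample: without replicate 2 the adjusted p was 0.0978 for Sparcl1 and 0.236 for Thbs1, so 0 of the 7 passed, and without replicate 4 it was 0.144 for Sparcl1.

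**Figure D3:**
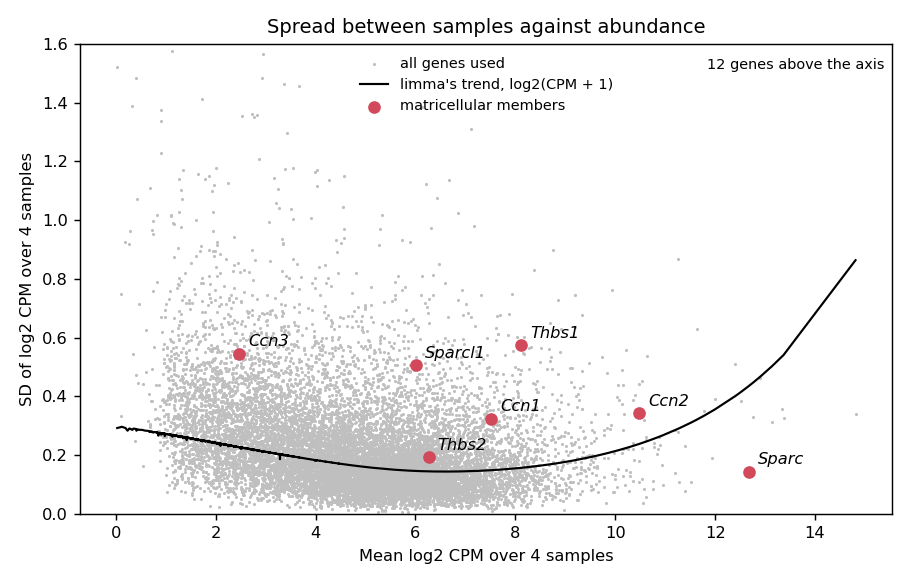
SD of log2 CPM over the 4 samples against mean log2 CPM for all 13261 genes (grey), with limma's trend for log2(CPM + 1) as a line and the 7 members in red; 12 genes lie above the axis limit of 1.6. Thbs1, Sparcl1 and Ccn3 have SDs between 0.51 and 0.57, above the trend, and Sparc lies below it at 0.14. There the trend is at 0.43, and the genes next to Sparc by CPM, Mt-nd2 and Mt-nd1, are mitochondrial.

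The order of the samples was then set beside that of cell type markers. From the highest sample to the lowest, Sparc ran 1 > 4 > 3 > 2 and Ccn2 and Thbs1 ran 4 > 1 > 3 > 2, orders that 9.44% and 6.15% of all genes showed. The summed podocyte markers ran 1 > 4 > 3 > 2 as well, at 11864, 6869, 9024 and 10701 CPM in replicates 1 to 4. Of the 12 podocyte markers, 11 were lowest in replicate 2, where 31.5% of all genes were lowest; Synpo (synaptopodin) was at 780 CPM in replicate 1 and 204 CPM in replicate 2. The 6 mesangial markers summed to 1963, 1867, 2029.5 and 2382 CPM, and 5 of 6 were lowest in replicate 2; the exception was Des (desmin), named after its values were seen, at 701, 1117, 872 and 1014 CPM. The 8 endothelial markers summed to 5366, 6247, 7033 and 5779 CPM, low in replicates 1 and 4, the samples in which Thbs2 was low. Kdr and Emcn, named after their values were seen, ran otherwise. Kdr was at 1602, 1504, 2195 and 1828 CPM and Emcn at 552, 682, 816 and 694 CPM. The remaining endothelial markers were lower in replicates 1 and 4 than in replicates 2 and 3. The part of the podocyte, mesangial and endothelial markers in the differences of Sparc, Ccn2, Thbs1 and Thbs2 was not tested. In such bulk samples, fewer cells of a type and less RNA per cell cannot be told apart.

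Set relative to these sums, an alternative chosen after the values were seen, Ccn2 amounted to 13.9%, 15.5%, 14.5% and 17.0% of the summed podocyte markers in replicates 1 to 4. Its range was then 1.23-fold, in place of 1.70-fold in CPM. Thbs1 ranged 1.49-fold relative to the podocyte sum, in place of 2.33-fold. Sparc ranged 1.37-fold relative to it, wider than the 1.26-fold in CPM, and Sparcl1 ranged 3.56-fold. Relative to the endothelial sum, Thbs2 ranged 1.15-fold in place of 1.29-fold, Ccn2 1.84-fold and Thbs1 2.58-fold. Thbs2 ranged more widely relative to the other sums, 2.23-fold for the podocyte and 1.59-fold for the mesangial markers. Relative to the mesangial sum the range was 1.46-fold for Ccn2 and 2.11-fold for Thbs1, values that depended on Des. Without Des the mesangial sum was 1262, 751, 1158 and 1368 CPM, in the order of Ccn2 and Thbs1. The ranges relative to it were 1.26-fold for Ccn2, 1.41-fold for Thbs1, 1.55-fold for Sparc and 2.27-fold for Thbs2. These ratios are descriptions of 4 samples and carry no test.

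**Figure D4:**
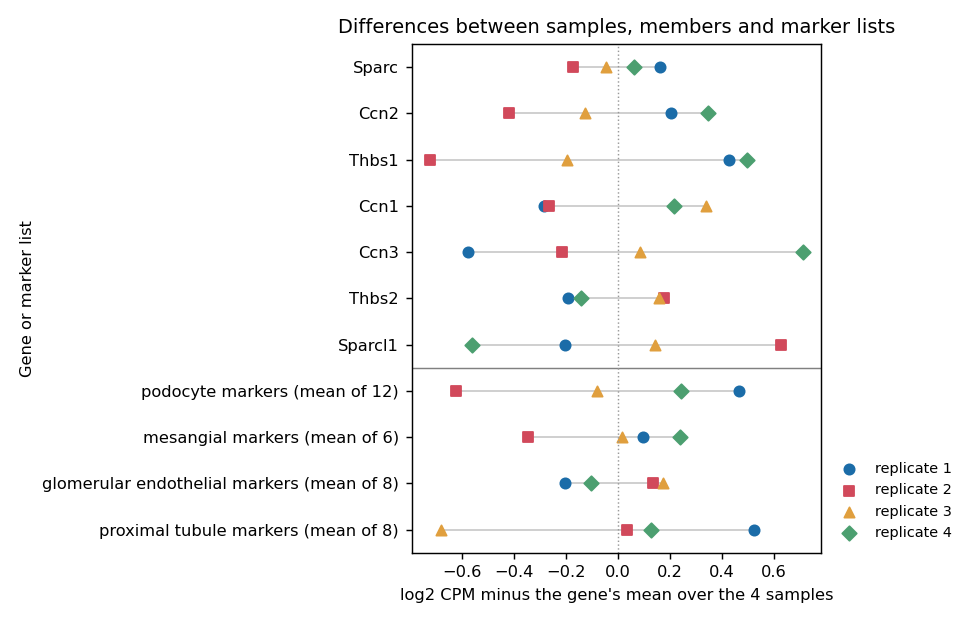
Differences between the 4 samples, as log2 CPM minus the mean over samples, for each member (upper 7 lines) and for the mean over the genes of 4 marker lists (lower 4 lines). Replicate 2 is lowest for Sparc, Ccn2, Thbs1 and for the podocyte and mesangial lists, and replicates 2 and 3 are above replicates 1 and 4 for Thbs2, Sparcl1 and the endothelial list.

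Other cell types that the sieved tissue could hold were examined in the same way. The proximal tubule markers summed to 5843, 4173, 2768 and 4631 CPM and were lowest in replicate 3 in 8 of 8 genes, where 19.6% of all genes were lowest. The 2 listed fibroblast markers, Col1a1 and Pdgfra, summed to 459, 288, 529 and 330 CPM, but did not share an order. Col1a1 made up most of the sum, at 450, 272, 516 and 317 CPM, and was lowest in replicate 2. Pdgfra, at 9.14, 16.5, 13.1 and 12.7 CPM, was highest there. Dcn, Lum and Fbln1 were not analysed here. The 7 immune markers summed to 1096, 1392, 1327 and 1252 CPM, in the order of Thbs2, but its genes, named after their values were seen, did not share an order. Cd68 had that order at 17.8 to 22.5 CPM, whereas the genes of highest CPM ran differently, Cd74 at 653, 777, 616 and 566 CPM and Lyz2 at 223, 342, 419 and 445 CPM. The 4 listed vascular smooth muscle markers summed to 935, 908, 934 and 962 CPM, in the order of Ccn2 and Thbs1, but their genes, named after their values were seen, did not share an order. Mylk was at 612, 354, 466 and 522 CPM. Myh11, at 32.4, 77.6, 70.2 and 61.9 CPM, and Tagln, at 234, 373, 318 and 296 CPM, had the order of Thbs2, and Acta2 was likewise lowest in replicate 1 and highest in replicate 2, at 57.1 and 103 CPM. The part of these cells in the members' differences was not tested. Sums lay between 449 and 617 CPM for the 6 parietal markers and between 479 and 633 CPM for the 6 distal nephron markers.

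Genes with the most similar pattern were found by the root mean square difference of centred log2 values over the 4 samples, among 12493 genes with a mean of at least 50 reads. For Ccn2 the nearest was Pdpn (podoplanin, a podocyte membrane glycoprotein), at a difference of 0.011, with 98.4, 64.9, 78.0 and 108.6 CPM in replicates 1 to 4. Ikbip and Elovl5 followed, at 0.019 and 0.028. For Thbs1 the nearest genes were Niban1, at 0.041, Sulf1 (a heparan sulfate 6-O-endosulfatase), at 0.046, and Bmpr1a (a BMP receptor), at 0.054. For Sparc they were Golga2, Wdpcp and Bnip1, at 0.0050, 0.0065 and 0.0095. Among the members themselves, Sparc and Ccn2 were closest, at 0.19, followed by Ccn2 and Thbs1, at 0.21, and Sparcl1 and Thbs1 were farthest apart, at 0.93. Small differences are easily reached by genes that vary little, so the values for Sparc say less than those for Thbs1. The measure also takes no account of counting error. Wdpcp had 95 to 106 reads and Bnip1 160 to 174. Neither differed between samples beyond counting error (chi-square index of dispersion, adjusted p = 0.408 and 0.250). Which genes come nearest can therefore rest on counting error, most of all where reads are few.

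Of the other matricellular genes, 10 of 20 were listed, and 5 of these passed at the fixed trend (limma 0, with 5 at an unadjusted p under 0.05), against 7.53% and 5.47% of all genes. Their median SD was 0.56, against 0.18 over all genes. Ccn4 (Wisp1), the most uneven, was at 43.6, 10.4, 18.2 and 33.2 CPM in replicates 1 to 4, in the order of Sparc and of the podocyte sum. Spp1 (osteopontin, a secreted phosphoprotein of injured tubules and macrophages) had the highest CPM of the list, at 550.3, 1886, 779 and 1140.1 CPM, highest where Ccn2 and Thbs1 were lowest. Thbs3 had the lowest mean, at 5.23 to 8.70 CPM, with Smoc2 next to it and lower in replicates 1 and 2. The other genes that passed were Lgals3 (galectin 3), at 16.4 CPM in replicate 1 and 57.9 in replicate 2, Spock2, a SPARC-related proteoglycan at 40.2 CPM in replicate 1 and 12.3 to 12.8 in the others, and Smoc2, a SPARC-related modular protein, at 2.73 CPM in replicate 1 and 6.91 to 9.71 in the others. Spock2 did not pass without replicate 1 (adjusted p = 1.00), nor did Smoc2 without replicate 1, 3 or 4 (adjusted p = 0.936, 0.0926 and 0.0754).

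Of 19 receptor genes, 18 were listed, and 5 passed at the fixed trend (limma 0, with 5 at an unadjusted p under 0.05), against the same shares of all genes; the median SD was 0.30. Vcam1, an endothelial adhesion receptor that binds SPARC, was the most uneven, at 41.6, 28.6, 50.3 and 108.7 CPM, and did not pass without replicate 4 (adjusted p = 0.106). Itgb1, the beta subunit shared by most matrix integrins, had the highest CPM, at 1806, 1258, 1462 and 1835 CPM in the order of Ccn2, and Itgb3 the lowest, at 3.24 to 5.15 CPM. The integrin genes Itgav, Itgb5 and Itga8 also passed, all with replicate 2 lowest. Itgav was at 152.5, 64.2, 89.2 and 130.3 CPM and did not pass without replicate 2 (adjusted p = 0.0958). Itga8 did not pass without replicate 2 or 4 (adjusted p = 0.620 and 0.0505), and Itgb5 did not without any single sample, with adjusted p-values from 0.0543 to 0.488, nor with mitochondrial genes left out of the totals (adjusted p = 0.0896). Stab1, a scavenger receptor for SPARC, was at 17.2 CPM in replicate 1 and 30.7 to 42.6 in the others, and did not pass without replicate 1 (adjusted p = 0.482). Cd47, the thrombospondin receptor named after its values were seen, was even, at 56.3 to 68.5 CPM.

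All 20 YAP and TAZ pathway genes were listed, and 3 passed at the fixed trend (limma 0, with 1 at an unadjusted p under 0.05), against 7.53% of all genes at the fixed trend and 5.47% at an unadjusted p under 0.05 in limma; the median SD was 0.21. In this list 16 of 20 genes were lowest in replicate 2, as were Ccn2 and Thbs1, where 31.5% of all genes were. Ccn1, also a target gene of YAP and TAZ, was lowest in replicate 1, at 150.4 CPM against 152 CPM in replicate 2. The genes lowest in replicate 2 included both Yap1 and the YAP inhibitor Lats2. The part of this pathway in the members' differences was not tested. Yap1 was at 139, 75.1, 99.2 and 134 CPM and did not pass without replicate 2 (adjusted p = 0.540). Tead1 was the most uneven gene, at 35.6, 17.2, 22.0 and 21.8 CPM, and did not pass without replicate 1 (adjusted p = 0.854); F3 (tissue factor) did not without replicate 2 or 4 (adjusted p = 0.284 and 0.633). Lats2, a kinase that inhibits YAP, had the highest CPM, at 290.06 to 424 CPM, and Tead2 the lowest, at 3.17 to 5.49 CPM. Of the 10 listed SRF and MRTF pathway genes, 1 passed at the fixed trend (limma 0, with 1 at an unadjusted p under 0.05), with a median SD of 0.26, a share near the 7.53% and 5.47% of all genes. The gene was Fos, an immediate-early gene and the lowest of the list, at 13.6, 22.6, 39.8 and 31.9 CPM. Like Ccn1, Fos was higher in replicates 3 and 4 than in replicates 1 and 2, and so was Egr1, named after its values were seen, at 40.2, 34.7, 53.2 and 57.5 CPM. Fos had the full order of Ccn1, 3 > 4 > 2 > 1, as had 6.90% of all genes, whereas Egr1 did not. Fos did not pass without replicate 1 (adjusted p = 0.0698), while 2 genes of the list passed with mitochondrial genes left out of the totals, and Flna had the highest CPM of the list, at 1107 to 1354.

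Of 12 TGF-beta pathway genes reported here, 0 passed at the fixed trend and 0 in limma, with 0 at an unadjusted p under 0.05 in either, and their median SD was 0.17, against 0.18 over all genes. The receptor gene Tgfbr2 had the highest CPM, at 490.2 to 765, and the ligand gene Tgfb3 the lowest, at 21.0 to 30.05. Of 14 collagen and matrix partners, 13 were listed and 5 passed at the fixed trend (limma 0, with 4 at an unadjusted p under 0.05), against 7.53% and 5.47% of all genes, with a median SD of 0.39. Col3a1, an interstitial collagen bound by SPARC, was the most uneven, at 31.0, 93.8, 153 and 90.5 CPM, lowest in replicate 1, where Sparc was highest. Col6a1, Col6a2 and Fn1 (fibronectin) were lowest in replicate 1 too, and none of these 3 passed without it (adjusted p = 0.221, 0.273 and 0.941). Plod2 (lysyl hydroxylase 2) did not pass without replicate 1 or 2 (adjusted p = 0.197 and 0.326), nor with mitochondrial genes left out of the totals (adjusted p = 0.0665). Col4a1, a basement membrane collagen, had the highest CPM and was even, at 2255 to 2694 CPM, and Lox the lowest, at 4.05 to 7.49 CPM.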

How the data were processed

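Polyadenylated RNA of 4 glomerular samples was sequenced from stranded libraries, per the labels' protocols. Per the submitters' processing notes, HISAT2, featureCounts, Subread and limma were used with the build Rnor_6.0; their order and settings, the annotation, any low-expression filter and whether counting used strand are not given in the sources used here. The deposited log2 values are log2 CPM with 0.5 reads added to each count, a form inferred here: on the linear scale every value was a per-sample constant times a whole number plus 0.5, within 0.01 reads for 100% of values. In 4 of 13265 rows the values were displaced between columns, and these rows were left out. Columns were matched to samples by title. With 1 group there is no contrast.

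The members and gene lists were chosen with earlier results of these data known. Recovered reads were tested against Poisson sampling (chi-square, 3 degrees of freedom); limma 3.58.1 (R 4.3.3) compared the residual variance of log2(CPM + 1) with its abundance trend (F test, prior of 3.79 degrees of freedom); and a Pearson statistic used a dispersion trend fixed in 40 bins of mean reads. P-values were Benjamini-Hochberg adjusted over all genes at a threshold of 0.05. Scripts were tested on simulated data. Named genes were all members, the 3 genes of most similar pattern for Sparc, Ccn2 and the member of highest SD, and the highest, lowest and most uneven gene of each pathway list; the other genes that passed at the fixed trend, and Cd47, Egr1, Synpo, Calcrl, Des and the immune and smooth muscle markers, were named after their values were seen. A gene that this rule selects is not reported here. Alternatives were other scalings, pseudocounts, a filter at a mean of 50 reads, a robust prior and leaving out each sample. Motifs were searched in RefSeq promoters (GRCr8). Intervals cover counting error only.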

Additional observations from a re-analysis of the deposited data

Results flagged for a closer look

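Dixon's test at its 95% critical value was applied to 77 results, and in 4 of them a single sample stood away from the rest, where chance gives 3.85. Replicate 1 was the odd sample in all 4. Spock2 (gap over range 0.965) was high there, with 40.2 CPM against 12.3 to 12.8 CPM. Calcrl (0.954) was low, with 246 CPM against 303 to 307 CPM, as were Tead2 (0.918), with 3.17 CPM against 5.25 to 5.49 CPM, and Lox (0.893), with 4.05 CPM against 7.02 to 7.49 CPM. None of the 7 matricellular members with values met the criterion.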

How the results depend on the processing

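No paired analysis was possible because the samples form a single group. All 7 members exceeded counting error under each scaling, the filter and each left-out sample, and limma called 0 genes under each alternative, which says nothing about stability since it called none at the outset. At the fixed trend, the number of members called was 2 with other scalings and with the filter, and ran from 0 (without replicate 2) to 2 when a sample was left out, with 1 without replicate 4. The number of all genes called there, 999, was 957 to 1096 with other scalings and the filter. It ran from 611 (without replicate 3) to 711 when a sample was left out, with 627 without replicate 4; fewer samples enter these tests, and no other cause was tested. Other scalings moved the median gene of a sample by at most 0.05 (log2). Ccn3, with 50 to 138 reads, is the member most limited by depth.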
